A study of Homo sapiens with 4 samples.

Results

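The genes described here are the zinc finger genes of human chromosome 19 whose symbols are ZNF followed by a number. They were chosen from both count tables as the names given to regions on chromosome 19 that were not annotated as intergenic, and a gene was kept when its reads summed to at least 50 in the J2 pair or in the Input pair. Of 243 such names, 170 met the minimum and 73 did not, among 16131 genes of any name that met it. ZNF443 with 50 reads and ZNF175 with 52 reads were just inside, and ZNF561 with 49 and ZNF836 with 47 were just outside. All 170 carry the description zinc finger protein and are listed as protein-coding.

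Most zinc finger genes of chromosome 19 belong to the KRAB family, which grew by repeated tandem duplication and sits in dense clusters on this chromosome. The proteins bind DNA through arrays of C2H2 fingers, often within transposable elements, and their KRAB domain recruits TRIM28 (KAP1), which in turn brings the histone methyltransferase SETDB1 and HP1 proteins to build heterochromatin. Their clustered, similar gene bodies are rich in introns with Alu and endogenous retrovirus sequence. J2 is an antibody that binds double-stranded RNA, so J2-bound RNA is enriched for transcripts that pair with themselves or with an opposite strand.

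The cells were NCI-H1944, an established human lung adenocarcinoma line whose genotype the labels give as WT. Cultures were exposed for 48 h to BAY-1217389 at 100 nM or to its solvent DMSO. The compound blocks MPS1, a kinase of the spindle checkpoint, which keeps chromosomes from separating before they are attached. In both conditions a washout and 24 h of further culture followed. From each condition 10% of the lysate gave the Input (total RNA) library and J2 immunoprecipitation gave the second library, so there are 4 groups of 1 library each, called here by treatment (DMSO or MPS1i) and kind of RNA (J2 or Input). With no replicates, what is compared below is single libraries, and how far cultures of 1 condition vary is unknown. The epithelial markers KRT7, KRT8, KRT18 and CDH1 were read in all 4 libraries, and 8 of the 9 listed were found by name, summing to 636.52 and 943.04 CPM in the DMSO and MPS1i Input libraries. KRT8 alone gave 570.2 and 853.1 of these. EPCAM and KRT19, also epithelial, were nearly absent, EPCAM with 7 and 1 Input reads and 11 and 2 J2 reads (DMSO and MPS1i), and KRT19 with 3 reads in DMSO Input and none elsewhere. NKX2-1, a lung lineage marker, was not found by name. The 6 leukocyte markers summed to between 1.53 and 7.43 CPM. Of 7 fibroblast markers 6 were found, summing to 5.01 and 33.44 CPM in DMSO and MPS1i Input and to 2.86 and 44.94 CPM in DMSO and MPS1i J2. FAP made most of that difference, with 21 and 149 Input reads and 23 and 281 J2 reads, and its part in the results below was not tested. The 3 endothelial markers summed to between 41.9 and 127.43 CPM, nearly all from PECAM1. The J2 libraries held 9793355 (DMSO) and 6697479 (MPS1i) counted reads, and the Input libraries 6381610 (DMSO) and 4844956 (MPS1i).

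Promoter sequence is shown here because 1 short motif was more frequent among the members than among all genes, in those higher and in those lower after MPS1i. RefSeq (GRCh38.p14) promoter windows of 300 bases, from 250 before to 50 after a start, were at hand for 149 of the 170 members and gave 189 windows. The heptamer CCGGAAG, the core letters of binding sites of ETS family transcription factors, was present on either strand in 81 of these 189 windows (42.9%) against 10.3% of all 35116 windows. Some windows overlap, since a gene can have several starts, and each window was counted separately. No share was computed for zinc finger genes of other chromosomes. Among members called higher, lower or neither in J2 (the call is defined below) it was in 44.4% (4 of 9), 36.6% (15 of 41) and 43.8% (60 of 137) of windows. Its presence thus did not separate the directions. Of the members called higher, 3 were still called so when only reads on the gene's own strand within it were counted. The core of the interferon-stimulated response element, GAAA followed by any 2 bases and GAAA, was in 2 windows of the members (1.06%, against 3.57% of all). Neither belonged to a gene called in J2 when reads were summed by region name. 1 was of ZNF160, named here after its values were seen. With regions assigned by overlap with 1 annotated gene, ZNF160 had 246 and 66 J2 reads (DMSO and MPS1i), -1.342 (-1.765 to -0.953), and was called lower. TTCCCGC, a core of E2F sites, was in 6.35% (6.55% of all), ACTACAA, a core of ZNF143 sites, in 5.29% (2.77%) and GCGCATGC, part of NRF1 sites, in 3.17% (3.05%). All 5 were searched on both strands, and their matches were counted separately. A match is only a match of letters. The members' windows held a median of 20 CpG dinucleotides, against 14 in all windows. The 250 bases before the start are given below, 5′ to 3′ on the gene's strand, for 2 members higher in J2 after MPS1i (ZNF284, ZNF304) and 3 lower (ZNF43, ZNF587, ZNF544). Capitals mark CCGGAAG or its reverse complement.
ZNF284, chr19:44071909-44072158, plus strand: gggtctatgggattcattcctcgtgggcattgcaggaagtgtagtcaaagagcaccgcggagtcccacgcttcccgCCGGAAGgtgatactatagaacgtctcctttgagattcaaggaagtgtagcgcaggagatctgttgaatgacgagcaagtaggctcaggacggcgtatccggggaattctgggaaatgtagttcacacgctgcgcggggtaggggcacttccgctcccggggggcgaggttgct
ZNF304, chr19:57351021-57351270, plus strand: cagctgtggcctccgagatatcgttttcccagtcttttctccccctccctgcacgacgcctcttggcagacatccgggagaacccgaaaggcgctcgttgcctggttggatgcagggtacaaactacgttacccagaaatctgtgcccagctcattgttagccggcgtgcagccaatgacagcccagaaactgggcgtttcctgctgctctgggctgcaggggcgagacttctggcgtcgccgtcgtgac
ZNF43, chr19:21836183-21836432, minus strand: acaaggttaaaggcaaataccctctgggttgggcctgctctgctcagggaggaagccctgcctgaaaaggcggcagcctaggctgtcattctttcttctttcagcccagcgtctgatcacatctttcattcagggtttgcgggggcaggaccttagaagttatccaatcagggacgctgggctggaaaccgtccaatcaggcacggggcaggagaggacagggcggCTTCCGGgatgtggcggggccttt
ZNF587, chr19:57849609-57849858, plus strand: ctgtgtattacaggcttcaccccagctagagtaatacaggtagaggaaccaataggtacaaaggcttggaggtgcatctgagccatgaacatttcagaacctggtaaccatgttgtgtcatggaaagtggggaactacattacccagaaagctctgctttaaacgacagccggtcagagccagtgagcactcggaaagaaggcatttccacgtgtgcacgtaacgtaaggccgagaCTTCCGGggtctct
ZNF544, chr19:58228664-58228913, plus strand: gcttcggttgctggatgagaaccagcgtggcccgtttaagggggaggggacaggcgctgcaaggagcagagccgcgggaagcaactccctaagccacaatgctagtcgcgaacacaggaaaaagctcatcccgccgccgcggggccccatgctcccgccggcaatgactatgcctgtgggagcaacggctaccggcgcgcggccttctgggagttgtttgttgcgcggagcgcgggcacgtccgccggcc

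Of the 2 called higher in J2, ZNF284 holds the heptamer and ZNF304 does not, in the printed stretch or in the whole window. ZNF284 had 27 and 29 J2 reads (DMSO and MPS1i) on its own strand within the gene, and was not called higher on those. All 3 called lower hold it in the window. In ZNF544 the match lies outside the printed stretch, in the last 50 bases of the window. ZNF544 has 26 CpG dinucleotides in the printed stretch and ZNF587 has 8.

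A value below is a sum of reads over the stranded regions that carry a gene's name, given as CPM, that is relative to all counted reads of the library. Ratios are on the log2 scale with 0.5 added to each count, and are followed by a 95% exact counting interval, which covers counting error only. A gene was called higher or lower when the pair held at least 50 reads, the ratio was at least 2-fold and the interval excluded 1. In the DMSO J2 library the members spanned 0.919 to 404.4 CPM with a median of 10.16, and in the MPS1i J2 library 1.045 to 498.7 CPM with a median of 8.81. In Input they spanned 0.313 to 117.4 CPM (DMSO) and 0.206 to 169.7 CPM (MPS1i), with medians of 7.29 and 6.71. No member was at 0 in any library.

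Summed over the 170 genes, 44655 reads (0.456% of the library) lay in DMSO J2 and 24084 (0.36%) in MPS1i J2, a log2 ratio of -0.34 (interval -0.37 to -0.32). In Input, 15599 reads (0.244%) compared with 10719 (0.221%), a log2 ratio of -0.14 (-0.18 to -0.11). The summed reads of the zinc finger genes thus took a smaller share of both kinds of library after MPS1 inhibition. The fall was larger among the J2-bound reads. Such a sum is weighted to the members with most reads. Gene by gene, the members' median log2 ratio in Input was -0.06, against -0.15 for all genes, and turned to 0.05 under another scaling (TMM). The Input sum is therefore not read as a direction of the set.

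**Figure D1:**
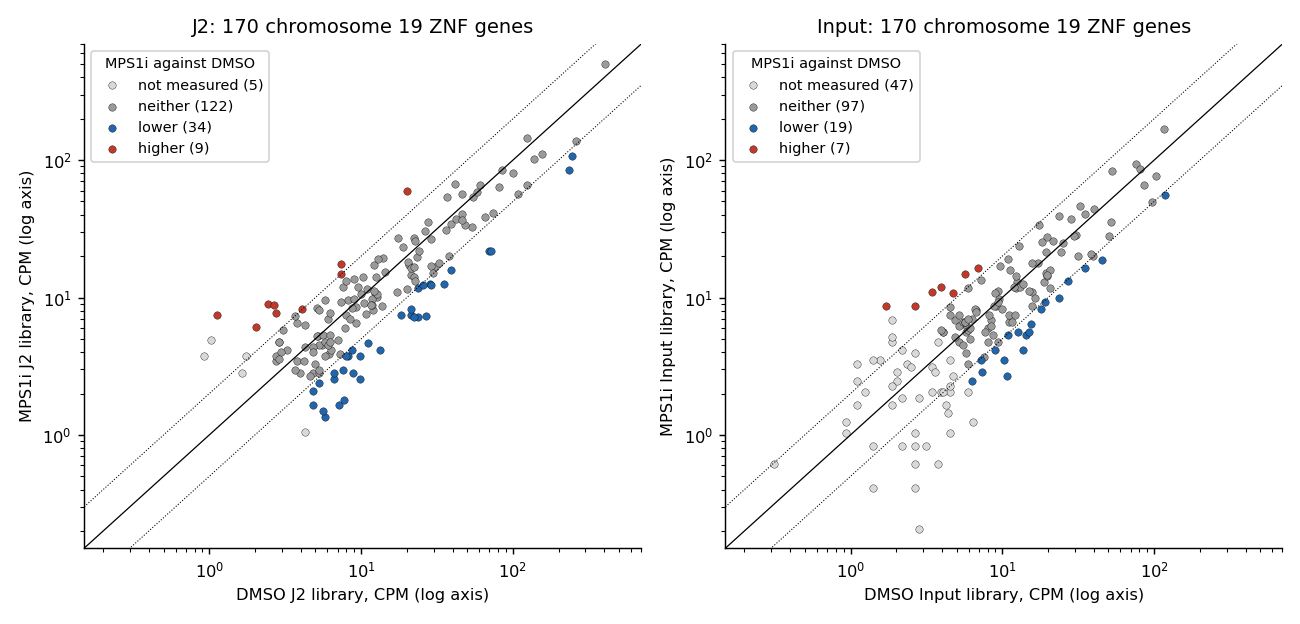
Level of each of the 170 genes in the MPS1i library against the DMSO library, in CPM on log axes, for J2 (left) and Input (right). The solid line marks equal levels and the dotted lines a 2-fold difference. In J2, 34 genes called lower (blue) lie under the lower line, and 9 called higher (red) lie above the upper line.

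In the J2 pair, 165 of the 170 members could be measured. Of these, 34 were lower and 9 higher in the MPS1i library, and 122 were neither. Over all 15262 genes measured in J2, 16.2 percent were called lower and 15.6 percent higher, so lower calls among the members (20.6%) were near that background and higher calls (5.45%) were below it. The median log2 ratio of the members was -0.28, against -0.11 for all genes. Other genes of chromosome 19 were lower still, with 245 of 650 called lower, 25 called higher and a median of -0.74. Zinc finger genes of other chromosomes, 173 measured, had 22 lower and 24 higher and a median of 0.01. The lower values were thus not particular to the zinc finger genes of the chromosome.

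**Figure D2:**
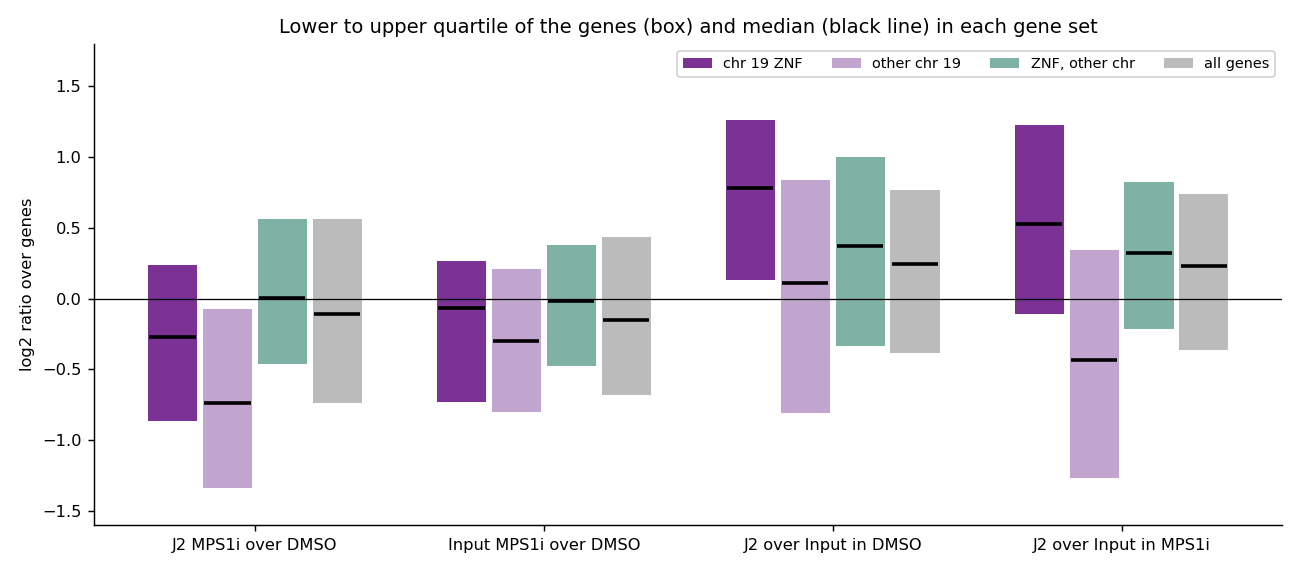
Log2 ratios in 4 sets of genes for 4 comparisons. Each box spans the lower to the upper quartile of the measured genes and the black line is the median. For J2 MPS1i over DMSO the chromosome 19 zinc finger genes (-0.28) sit between other chromosome 19 genes (-0.74) and zinc finger genes of other chromosomes (0.01).

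ZNF544, one of the 4 members with most reads, had 2278 reads in DMSO J2 and 571 in MPS1i J2. Its log2 ratio was -1.45 (-1.58 to -1.31), and its Input reads, 749 and 268, gave -1.08 (-1.29 to -0.88). The gene spans chr19:58228594-58277495 on the plus strand, and 93.23% of its J2 reads lay within it on its own strand. ZNF587, which binds endogenous retrovirus sequence, had 703 and 147 J2 reads, -1.71 (-1.98 to -1.45), and 174 and 64 Input reads, -1.04 (-1.48 to -0.62). Its 2 most-read J2 regions, in introns at chr19:57850105-57852530 and chr19:57852988-57853729, held 298 and 66 reads and 247 and 39 reads in DMSO and MPS1i. Both regions of ZNF587 were lower, and neither overlapped a repeat on its strand.

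ZNF331, an imprinted gene at the distal end of a cluster (chr19:53519527-53580269, plus strand), had 677 J2 reads in DMSO and 147 in MPS1i, -1.65 (-1.92 to -1.40). Its Input reads were 245 and 101, -0.88 (-1.23 to -0.54), which was under 2-fold. ZNF473, which encodes ZFP100, a factor of the U7 snRNP in the processing of replication-dependent histone messages, had 262 and 49 J2 reads, -1.86 (-2.34 to -1.43). In Input ZNF473 was also lower, with 95 and 27 reads, -1.40 (-2.09 to -0.79). ZNF331 and ZNF473 had 95.02% and 97.43% of their J2 reads on their own strand within the gene, so these reads lie in the named transcript units. With regions assigned by overlap with 1 annotated gene, ZNF331 was still lower in J2, at -1.816. ZNF473 then had 496 and 173 J2 reads, -0.969 (-1.23 to -0.719), which is under 2-fold. Its J2 call thus depends on which regions are counted.

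The remaining genes with the firmest lower values had fewer reads. ZNF567 had 232 J2 reads in DMSO and 48 in MPS1i, -1.71 (-2.21 to -1.27), and 71 and 32 in Input. ZNF136 had 96 and 17 in J2, -1.92 (-2.79 to -1.20), and 16 and 15 in Input, too few to be measured. ZNF43 had 75 and 12 in J2, -2.05 (-3.11 to -1.21), and ZNF101 had 70 and 11, -2.07 (-3.19 to -1.20). ZNF43 and ZNF101 had 11 and 13 Input reads in all, so no total RNA comparison could be made for either; for ZNF101, 55.56% of the J2 reads lay where no gene is annotated on that strand.

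Of the 9 members called higher in J2, 8 fall under the naming rule and the ninth was ZNF222, named here after its values were seen (log2 ratio 1.00). ZNF416 had 11 J2 reads in DMSO and 50 in MPS1i, 2.68 (1.77 to 3.82), and 22 and 53 in Input, 1.65 (0.92 to 2.45). It was 1 of 2 members higher in both kinds of library. The other was ZNF582, with 197 and 398 J2 reads, 1.56 (1.31 to 1.82), and 17 and 42 Input reads, 1.68 (0.86 to 2.61). Most ZNF582 reads were not from its own transcript: 83.19% of its J2 reads lay on a strand without an annotated gene, led by the region chr19:56383925-56385671 on the plus strand, opposite to ZNF582, with an AluJr and 89 and 206 reads. Counted on its own strand within the gene, ZNF582 had 21 and 17 J2 reads. Of ZNF416's J2 reads 70.49% likewise lay where no gene is annotated on their strand, and the gene's own strand held 3 and 15.

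ZNF577 had 24 J2 reads in DMSO and 60 in MPS1i, 1.85 (1.17 to 2.62), while its Input reads were 28 and 7. ZNF471, a gene often silenced by promoter methylation in tumours, had 26 and 59 J2 reads, 1.72 (1.04 to 2.46). ZNF304, a KRAB zinc finger gene, had 27 and 52, 1.48 (0.80 to 2.22), with 36 and 32 in Input. In ZNF471 and ZNF304, 97.65% and 94.94% of the J2 reads lay on the gene's own strand within it, and with ZNF577 these were the 3 members still called higher when only such reads were counted.

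**Figure D3:**
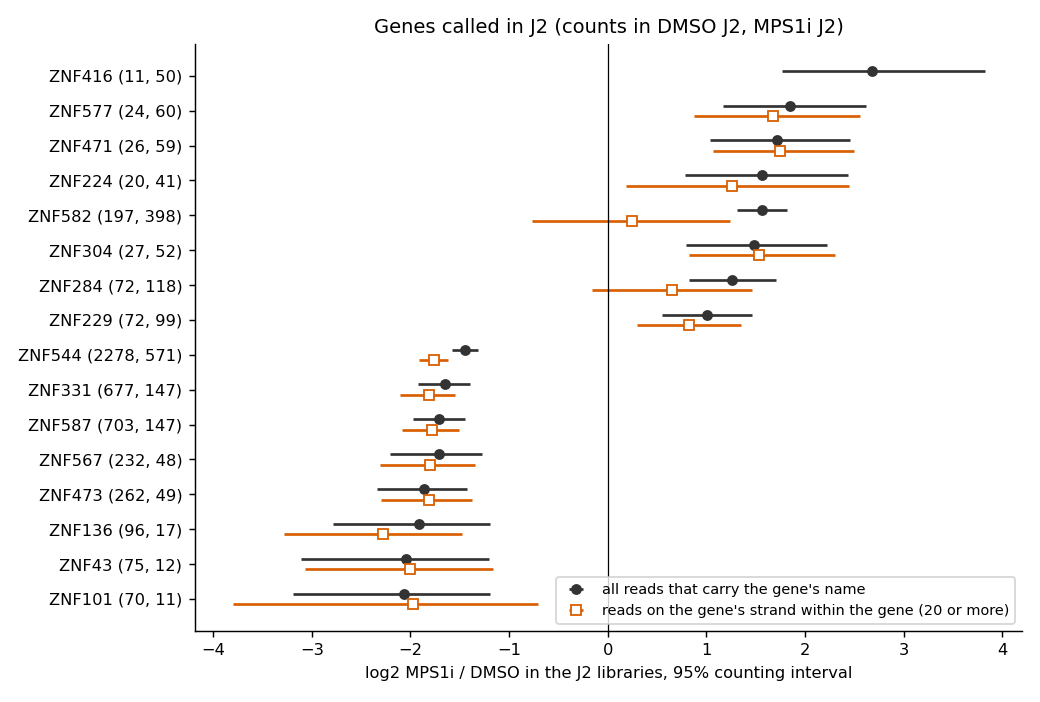
Log2 ratio of MPS1i over DMSO in the J2 libraries for the named genes called in J2, with 95% counting intervals and the DMSO and MPS1i counts beside each name. Filled circles use all reads that carry the gene's name and open squares only reads on the gene's strand within it. For 7 of the 8 lower genes both counts give a lower call. ZNF101 has too few own-strand reads (31 and 5) for a call, and ZNF582 moves from 1.56 to 0.25.

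In Input, 123 members were measured, with 19 lower, 7 higher and 97 neither. Over all 14363 genes measured there, 13.5 percent were lower and 11.8 percent higher, against 15.4% and 5.69% of the members. The median was -0.06 for the members and -0.15 for all genes, and with TMM scaling the members' median was 0.05 with 10 higher and 11 lower, so no direction is given for the set as a whole. ZNF134 had 68 Input reads in DMSO and 13 in MPS1i, -1.95 (-2.97 to -1.12). ZNF383 had 87 and 20, -1.70 (-2.50 to -1.01), and ZNF557 had 65 and 17, -1.51 (-2.40 to -0.75). For ZNF557, however, 59.76% of the Input reads lay in introns or other parts of INSR, the neighbouring insulin receptor gene.

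ZNF431 had 92 and 26 Input reads, -1.41 (-2.11 to -0.78). ZNF507 had 290 and 91, -1.27 (-1.63 to -0.93), although its J2 reads, 454 and 273, gave -0.19 (-0.41 to 0.03). ZNF274, which itself recruits SETDB1 to the 3′ ends of zinc finger genes, had 150 and 48 Input reads, -1.24 (-1.75 to -0.77), and 284 and 82 J2 reads, -1.24 (-1.62 to -0.89). ZNF274 was thus lower by the same amount in total and in J2-bound RNA, and 97.27% of its J2 reads lay on its own strand within chr19:58183029-58213562.

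Higher in Input were ZNF211 with 11 reads in DMSO and 42 in MPS1i, 2.28 (1.35 to 3.44), and ZNF773 with 25 and 58, 1.60 (0.91 to 2.35). ZNF320 had 36 and 72, 1.39 (0.80 to 2.02), and ZNF417 44 and 80, 1.25 (0.71 to 1.83). For ZNF417, a paralogue of ZNF587, 1 region at chr19:57905129-57905764, annotated with a U2 small nuclear RNA repeat, held 21 and 65 of these reads. ZNF414 had 30 and 52, 1.18 (0.52 to 1.89), but 73.17% of its Input reads lay where no gene is annotated on their strand. ZNF416 and ZNF582 complete the 7.

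Both kinds of library could be compared for 118 members. Of these, 8 were lower in both (ZNF274, ZNF383, ZNF431, ZNF473, ZNF544, ZNF557, ZNF575, ZNF587, of which ZNF575 was named after its values were seen), 2 were higher in both, and none was higher in one and lower in the other. ZNF575 had only 1 and 1 J2 reads on its own strand within the gene (DMSO and MPS1i). ZNF557 had 37 and 19 such reads, -0.395 (-1.294 to 0.422), which was not called. The lower calls of ZNF575 and ZNF557 in J2 thus depend on the naming. The sign was the same in J2 and Input for 86 of the 118. Pearson's r across these genes was 0.583, against 0.743 across 13494 genes of any name. The genes share the same 4 libraries, so r is a description.

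**Figure D4:**
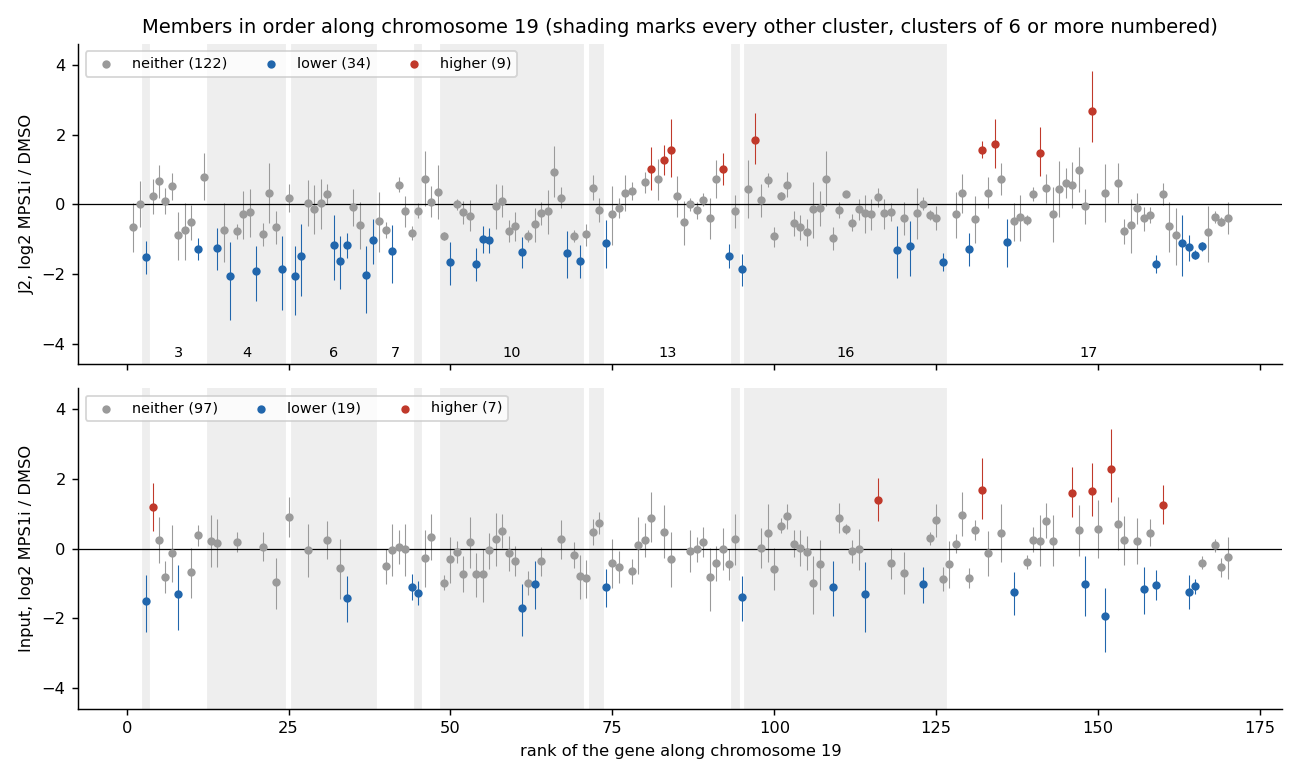
Log2 ratio of MPS1i over DMSO for each measured member in order along chromosome 19, in J2 (top) and Input (bottom), with 95% counting intervals. Shading alternates between clusters and those with at least 6 members are numbered. Cluster 6 holds 7 genes called lower and none higher in J2, and cluster 13 holds 4 higher and 2 lower.

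Members whose regions lie under 1 Mb apart formed 17 clusters along the chromosome, and their J2 values are given by cluster with no test between them. The shares to set beside these counts are 16.2 percent lower and 15.6 percent higher over all genes, and 37.7% lower and 3.85% higher over other chromosome 19 genes. In the cluster at 19.67 to 22.09 Mb, from ZNF101 to ZNF257 and including ZNF43 and ZNF431, 7 of 13 members were lower and none higher, with a median log2 ratio of -1.04. At 11.5 to 12.63 Mb, which holds ZNF136, 4 of 11 measured were lower and the median was -0.77. At 36.18 to 37.78 Mb, with ZNF567 and ZNF383, 7 of 22 were lower and the median was -0.70. The cluster at 43.53 to 44.52 Mb had 4 of 19 measured higher, 2 lower and a median of 0.22. The 4 of 11 and 7 of 22 lower are near the share of other chromosome 19 genes. On own-strand reads within the genes the order of these clusters changed. Then 4 of 8 measured were lower at 19.67 to 22.09 Mb, 6 of 8 at 11.5 to 12.63 Mb and 9 of 16 at 36.18 to 37.78 Mb, with none higher. Other chromosome 19 genes counted in this way had 56% lower.

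The 4 higher members of the cluster at 43.53 to 44.52 Mb were ZNF222, ZNF284, ZNF224 and ZNF229. ZNF224, a KRAB repressor first described at the aldolase A promoter, had 20 J2 reads in DMSO and 41 in MPS1i, 1.57 (0.78 to 2.43), with 39 and 24 in Input. ZNF229 had 72 and 99, 1.00 (0.56 to 1.47), with 56 and 42 in Input. ZNF284 had 72 and 118, 1.26 (0.83 to 1.70), but 65.79% of its J2 reads lay in AC067968.1, mainly in 1 region with AluJb and L1M4 repeats (chr19:44068028-44068581, 35 and 74 reads). On own-strand reads within the genes, none of 14 measured members of this cluster was higher, 4 were lower and the median was 0.01. The 2 large distal clusters were mixed: at 51.57 to 53.58 Mb 3 were lower and 1 higher among 31 members, median -0.24, and at 55.6 to 58.49 Mb 7 were lower and 4 higher among 41 measured, median -0.32.

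HOMER names a region for the nearest transcription start, which in tightly packed clusters is often a neighbour's. Of the members' reads, 59.89% (59.44 to 60.35, Wilson 95% interval) in DMSO J2 and 57.03% (56.41 to 57.66) in MPS1i J2 lay on the gene's own strand within the gene as GENCODE 29 annotates it. For 116 members most J2 reads lay in the gene itself, for 10 in another member, for 19 in a gene outside the set and for 25 on a strand with no annotated gene. ZNF8 is a clear case. It had 2406 J2 reads in DMSO and 712 in MPS1i, -1.21 (-1.33 to -1.09), of which 93.94% lay in ZNF544 and none within ZNF8 on its strand. ZNF8 and ZNF544 therefore report 1 transcript unit and are not independent. Of the reads named for ZNF565 (2535 and 918 in J2, 622 and 240 in Input), 94.21% of the J2 reads lay in ZNF146, an overlapping gene on the opposite strand.

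Counting only own-strand reads within the gene left 120 members measured in J2, with 42 lower, 3 higher and a median of -0.68. All genes counted the same way had 24.6 percent lower and 12.4 percent higher (8916 genes, median -0.33), and other genes of chromosome 19 had 192 of 343 lower and a median of -1.11. In Input the same count gave 20 lower and 5 higher of 80, where all genes had 19.3 percent lower and 10.5 percent higher. The lower calls of the members were therefore more frequent on their own strand than under the nearest-gene names, and so were those of all genes. Of the 82 members with at least 80% of their J2 reads on the own strand within the gene, 24 of 79 measured were lower and 2 higher. Of the others, 10 of 86 were lower and 7 higher.

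**Figure D5:**
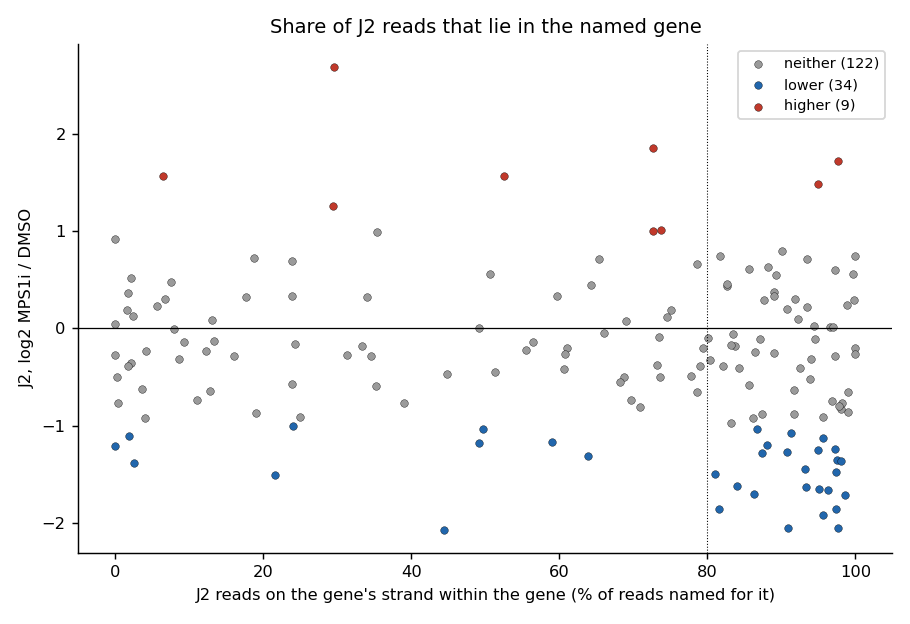
Log2 ratio of MPS1i over DMSO in J2 for 165 members against the share of their J2 reads that lie on the gene's strand within the gene. The dotted line marks 80%. To its right 24 of 79 genes are lower and 2 higher, and to its left 10 of 86 are lower and 7 higher.

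Reads from the opposite strand within a member gene behaved differently from those of the gene's own strand in several cases. At least 50 such J2 reads were found in 29 members, of which 1 was lower and 1 higher, with a median log2 ratio of -0.09. In 17 members both strands had at least 50 J2 reads, and the sign was the same in 10. ZNF808, which binds MER11 elements, had 261 and 64 J2 reads on its own strand and 25 and 34 on the opposite strand. ZNF507 had 398 and 211 on its own strand and 56 and 62 on the other, from a region that spans most of the gene. Whether the strands pair with each other was not tested.

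Compared with Input in DMSO, the members were enriched among J2-bound reads: 56 of 157 measured were higher and 10 lower, with a median log2 ratio of 0.78. Over all 14718 genes, 16.5 percent were higher and 12.4 percent lower, with a median of 0.25. Zinc finger genes of other chromosomes had 25.2% higher and 10.4% lower (median 0.37), and other chromosome 19 genes 19.6% and 21.5% (0.11). In the MPS1i libraries 43 of 128 members were higher and 7 lower (median 0.53), where all genes gave 16.0 percent and 11.3 percent and a median of 0.23. On own-strand reads within the genes, 36.2% of the members were higher in DMSO and 23.1% in MPS1i. Other chromosome 19 genes then had 31.6% and 14.6%, zinc finger genes of other chromosomes 25% and 19%, and all genes 22% and 18.6%. Part of the enrichment was thus shared with these sets. The tables hold separate sets of regions, and the members' regions covered 3663856 bases in Input and 4433320 in J2, so the ratios depend in part on what each table covers. On regions matched in both tables, 35 members could be measured in DMSO, with 14 higher, 1 lower and a median of 0.71. All genes matched the same way had 9.95% higher, 17.5% lower and a median of -0.10. In MPS1i the median of 23 matched members was 0.36, with 5 higher and 2 lower, and all genes had 14.5% higher, 17.2% lower and a median of 0.05. In the Input libraries mitochondrial RNA also takes part of the total, and leaving it out moved the all-gene median in DMSO to -0.15 and the members' median to 0.39, with 32 members higher and 14 lower. In MPS1i that scaling gave 28 higher and 12 lower.

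ZNF83 had the most reads of all members and was enriched with 736 Input reads and 3960 J2 reads in DMSO, 1.81 (1.70 to 1.93). It had 822 and 3340 in MPS1i. A single intronic stretch, chr19:52645937-52649894 on the minus strand with AluSx, AluJo and HERVIP10B3 internal sequence, held 2727 reads in DMSO J2 and 2374 in MPS1i J2, 69.88% of the gene's J2 reads. ZNF83 was not called after MPS1i, at 0.30 (0.24 to 0.37) in J2 and 0.56 (0.41 to 0.70) in Input.

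The firmest enrichment was found for ZNF615, with 26 Input and 408 J2 reads in DMSO, 3.33 (2.78 to 3.99). The region behind it, chr19:52017359-52017465, lies in an intron of the neighbour ZNF614 and held 302 of the reads. ZNF226 had 58 and 534 reads, 2.57 (2.19 to 3.002), of which 400 J2 reads came from an intron of ZNF234 (chr19:44155966-44156252). ZNF71 had 2 Input and 78 J2 reads, 4.36 with a wide interval of 2.77 to 7.74, and ZNF582 had 17 and 197, 2.88 (2.20 to 3.73). Of these 4, ZNF71 was the one with most J2 reads in the named gene (91.26%). With regions assigned by overlap with 1 annotated gene, however, ZNF71 had 45 Input and 80 J2 reads in DMSO. Its ratio was then 0.205 (-0.332 to 0.773) and was not called. ZNF226 gave 0.538 and was not called either, while ZNF615 (1.13) and ZNF582 (1.934) were still called higher. The enrichment of ZNF71 and ZNF226 thus depends on the naming.

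Depleted from J2 were ZNF865 with 255 Input and 57 J2 reads in DMSO, -2.77 (-3.22 to -2.36), and ZNF444 with 206 and 59, -2.41 (-2.87 to -2.00). ZNF524 had 54 and 16, -2.34 (-3.28 to -1.55), and ZNF134 had 68 and 28, -1.88 (-2.59 to -1.24). In ZNF865 a single Input region with an AluJo (chr19:55612636-55613563) held 201 of the DMSO reads. When regions were assigned by overlap with 1 annotated gene, ZNF865 gave 0.23, so its depletion depends on the naming.

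How J2 enrichment itself changed, with the J2 to Input ratio of the MPS1i libraries divided by that of the DMSO libraries, could be computed for 154 members. It was higher in 13 and lower in 17, with a median of -0.07. All 14984 genes had 9.03 percent higher and 7.14 percent lower, so the members' 8.44% and 11% were near the background. The split turned with the scaling, with 18 higher and 11 lower once mitochondrial reads were left out and 9 higher and 24 lower with TMM. The largest value was that of ZNF577, 3.38 (2.04 to 4.72), where J2 reads were higher and Input reads fewer. Its Input reads were too few for an Input call. With regions assigned by overlap with 1 annotated gene, ZNF577 had 96 Input reads in DMSO and 51 in MPS1i. The change was then 1.875 (1.042 to 2.708), still called higher, so its size depends on the naming. Among the 20 members of the cluster at 43.53 to 44.52 Mb, ZNF224 had 1.86 (0.80 to 2.91).

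Regions in introns held 75.97% of the members' J2 reads in DMSO and 70.31% in MPS1i. Regions near transcription ends held 14.01% and 19.05%. Intronic reads were lower after MPS1i, at -0.45 (-0.48 to -0.43), and reads near transcription ends were slightly higher, at 0.10 (0.05 to 0.16). In Input the same contrast was found, with -0.25 (-0.29 to -0.21) for introns and 0.38 (0.28 to 0.48) for transcription ends. Regions of all genes showed it too, with introns at -0.21 and transcription ends at 0.13 in J2, and -0.12 and 0.19 in Input. The contrast is therefore not particular to the members. Regions without a repeat on their strand held 48.65% of the J2 reads in DMSO and 43.64% in MPS1i, a ratio of -0.50 (-0.53 to -0.47). Alu regions gave -0.34 (-0.40 to -0.29) and LTR regions -0.54 (-0.68 to -0.41). In Input, regions without a repeat gave -0.30 (-0.35 to -0.25), but Alu regions gave 0.17 (0.08 to 0.26) and LTR regions 0.15 (-0.03 to 0.33). Repeat classes were not counted over all genes, so whether these values are particular to the members was not tested. Among the J2 values, regions that span several of Alu, L1 and LTR were the one class whose ratio did not fall below 0, at 0.04 (-0.02 to 0.09). These are long regions, summing to 6841 (DMSO) and 4803 (MPS1i) reads. Much of that sum came from 1 of them, the ZNF83 stretch given above, whose reads were not lower after MPS1i. The class was not computed without ZNF83, so whether its other regions share the value was not tested.

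Of 8 listed zinc finger genes that bind retrotransposons, 5 had enough J2 reads. ZNF91, which binds SVA elements, had 65 and 17 J2 reads, -1.36 (-2.25 to -0.60), and 38 and 28 in Input. With regions assigned by overlap with GENCODE it had 315 and 133, -0.69, which is under 2-fold. ZNF587 was lower as given above, ZNF611 had 474 and 225, -0.53 (-0.76 to -0.30), and ZNF808 had 290 and 101, -0.97 (-1.32 to -0.64). ZNF417 had 185 and 155, 0.29 (-0.02 to 0.61). In J2 the calls were lower for ZNF91 and ZNF587, and in Input 2 were lower (ZNF587, ZNF808) and 1 higher (ZNF417), of 5. ZNF93, ZNF649 and ZNF534 had too few reads.

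Genes from a list of 22 KRAB corepressors and heterochromatin factors were lower more often than higher. In J2, 6 of 18 measured (33.3%) were lower and none higher, with a median of -0.53, where all genes had 16.2 percent lower, 15.6 percent higher and a median of -0.11. SETDB1 had 1232 and 389 J2 reads, -1.11 (-1.28 to -0.95). The HP1 genes CBX3 and CBX5 had 257 and 48, -1.86 (-2.35 to -1.42), and 1609 and 530, -1.05 (-1.20 to -0.91). UHRF1, which guides maintenance DNA methylation, had 124 and 13, -2.66 (-3.65 to -1.88). RBBP4 and EHMT1 were the other two. In Input 6 of 20 (30%) were lower and 1 (5%) higher with a median of -0.65, where all genes had 13.5 percent lower, 11.8 percent higher and a median of -0.15. TRIM28, the corepressor itself, had 90 and 15 Input reads, -2.15 (-3.08 to -1.39), and only 6 and 9 J2 reads. DNMT1, the maintenance methyltransferase, had 129 and 40, -1.28 (-1.84 to -0.77), ATF7IP 797 and 227, -1.41 (-1.63 to -1.20), and HDAC1 was the higher one with 101 and 244, 1.67 (1.33 to 2.02). Over all genes, introns held 87.32% of the named reads in DMSO J2 and 86.99% in DMSO Input. That share was not computed for the listed genes, so their sums are not read as levels of mature messages. Where the listed genes lie was not taken into account, and other genes of chromosome 19 had 37.7% lower in J2 and 17.6% lower in Input.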

How the data were processed

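In all, 2 libraries of J2-bound RNA and 2 of total RNA (Input) were compared. Deposited values are whole-number read counts per stranded region, in 1 table for J2 and 1 for Input, per the file headers. The submitters' processing notes list STAR, featureCounts, HOMER, cutadapt, Trim Galore and Trimmomatic, with neither version nor role, and the build GRCh38 (hg38). For region calling, duplicate reads and reads of several places, the method is not given in the sources used here. Nor is it given whether region starts count from 0 or 1, so coordinates of regions may be off by 1 base.

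Reads were summed per gene as HOMER names it (Annotation not Intergenic) and scaled to the library's summed count. Counts at 50 or above per pair, a 2-fold ratio and an exact (Clopper-Pearson) interval of 95% set the calls. The change of enrichment used a delta-method interval and at least 20 Input reads. With 1 library per group there is no p-value. Gene spans come from GENCODE 29, in which 169 members were found. Tools were pandas 2.3.3, scipy 1.17.1, bedtools 2.31.1, and edgeR 4.0.16 and DESeq2 1.42.0 for scaling factors only. The call rule was tested on simulated data. The named genes were, in each of the J2 and Input comparisons, the 8 lower genes with the lowest upper bound and the 8 higher genes with the highest lower bound, the 4 most enriched and 4 most depleted in DMSO, the 4 with most reads and the retrotransposon-binding list. Genes of the corepressor list could be named as well. The members, the lists and the rules were chosen with earlier results of these data known. Alternatives were other scalings, count minimums, strand and overlap rules, 1 read per region, leaving out the most-read region, equal depth and matched regions. The count of own-strand reads within the gene was chosen after seeing the data.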

Additional observations from a re-analysis of the deposited data

Results flagged for a closer look

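For 21 members the MPS1i over DMSO ratio had opposite signs in J2 and in Input and the change of enrichment passed the call rule. That is 13.6% of the 154 measured, where 8.42% of 14984 genes of any name met both conditions. With 1 library per group the difference has counting intervals only and no replicate check. Positive changes, with J2 above DMSO and Input below, were found for ZNF577 (3.38), ZNF225 (2.5), ZNF134 (2.28), ZNF224 (1.86), ZNF749 (1.39), ZNF112 (1.14), ZNF223 (1.07), ZNF765 (1.04), ZNF45 (1.02) and ZNF229 (1.02), as log2 ratios of ratios. Of these 10, 6 lie in the cluster at 43.53 to 44.52 Mb. ZNF225 had 41 and 6 Input reads and 59 and 47 J2 reads in DMSO and MPS1i, so its change comes from Input. ZNF45 had the most reads of that cluster's 6, with 201 and 97 in Input and 270 and 239 in J2, and a change interval of 0.59 to 1.45. With regions assigned by overlap with 1 annotated gene, the change was still called higher for ZNF577, ZNF225 and ZNF45. ZNF225 then had a J2 ratio of -0.11, so its signs in J2 and Input no longer differed. ZNF765 gave a change of 0.447, which was not called, and the other genes of this list had too few reads.

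Negative changes were found for ZNF845 (-2.63), ZNF426 (-2.56), ZNF136 (-2.22), ZNF418 (-1.9), ZNF562 (-1.66), ZNF555 (-1.54), ZNF66 (-1.45), ZNF627 (-1.42), ZNF813 (-1.19), ZNF701 (-1.04) and ZNF154 (-1.01). ZNF562 had 182 and 180 Input reads and 382 and 107 J2 reads, a change interval of -2.09 to -1.24, and 87.32% of its J2 reads lay in the gene on its own strand. For ZNF154 and ZNF418 that share was 0.32% and 3.66%. By overlap with 1 annotated gene, the change was still called lower for ZNF845, ZNF136, ZNF562, ZNF627 and ZNF813. ZNF701 gave -0.289, which was not called, and the other genes of this list had too few reads.

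Intergenic regions that carry a member's name were outside the rule. In Input they held 13070 reads in DMSO and 10696 in MPS1i, a log2 ratio of 0.11 (0.07 to 0.15). These regions were thus above DMSO, where the summed reads of the members were below it. In J2 their 44033 and 29015 reads gave -0.05. All intergenic regions gave 0.55 in Input and 0.39 in J2.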

How the results depend on the processing

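No paired analysis was possible because each group holds 1 library, and for the same reason no replicate could be left out. Lower calls in J2 stayed within 1.5 times of 34 under every alternative run for that comparison except 1 read per region, which gave 10, and the J2 median stayed below 0 in those (-0.68 to -0.25). Matched regions, planned for J2 over Input alone, left 36 members in J2 with 7 lower, 0 higher and a median of -0.35, and 21 in Input with 1 lower, 2 higher and a median of 0.33. Higher calls in J2 fell to 3 with a count minimum of 100, to 5 on the own strand, to 5 by overlap with 1 annotated gene, to 3 for own-strand reads within the gene and to 0 with 1 read per region. In Input, lower calls were 11 with TMM, 31 and 12 with count minimums of 1 and 100, and 0 with 1 read per region, and higher calls were 12, 2 and 0 under those last 3 and 3 by 1-gene overlap. The Input median turned to 0.046 with TMM, where the all-gene median moved from -0.15 to -0.04. With 1 read per region, which leaves few genes past the minimum, the J2 over Input median was 0.058 in DMSO and -0.19 in MPS1i. The median change of enrichment turned to 0.013 without mitochondrial reads and to 0.076 without each gene's most-read region. By 1-gene overlap ZNF582 turned to -0.014 in J2 and ZNF865 to 0.232 in J2 over Input, and with 1 read per region ZNF544 turned to 0.108 in Input. The cause was not tested. Depth limits the Input pair most: 47 members had under 50 reads there.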
